A study of Mus musculus with 9 samples.

Results

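Wdr17, Pgbd5, Zfp536, AA465934, Sypl2, Ndnf, Plekhh1, Cpe and Arhgap9 are 9 genes that were grouped as little studied. They were picked by symbol from a table of 24391 genes because their counts differed strongly, and in every library, between adult mouse ventricles with stabilized beta-catenin and adult control ventricles. RNA sequencing libraries came from cardiac ventricles of C57BL/6 mice in 3 groups of 3 libraries. The stabilized beta-catenin group was 15 weeks old, positive for Cre recombinase driven by the alphaMHC (Myh6) promoter, and had beta-catenin exon 3 deleted. The P6 group consisted of wild-type pups at postnatal day 6, with no Cre listed. The adult control group was also 15 weeks old and positive for the same Cre, with unaltered beta-catenin. The promoter restricts Cre to cardiomyocytes, whereas whole ventricles also hold other cell types. The labels do not state the sex or whether each library is a separate animal, so p-values measure the spread between libraries. P6 differs from the adult libraries in age, in Cre and in the set of libraries at once, and these differences cannot be told apart.

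Beta-catenin is the transcriptional effector of canonical Wnt signalling. Without a Wnt signal it is phosphorylated at its amino-terminal end and degraded, and loss of exon 3 removes those phosphorylation sites, so that the protein accumulates and acts in the nucleus with TCF/LEF factors. The adult heart normally shows little of this activity, and the pathway is used in heart development and again in disease. The 9 genes share no known pathway. Wdr17 encodes a WD-repeat protein best known from the retina, Pgbd5 a protein derived from a piggyBac transposase, Zfp536 a zinc finger repressor of neuronal differentiation, and AA465934 a long noncoding RNA. Sypl2 encodes mitsugumin 29, a synaptophysin-like membrane protein of skeletal muscle triads. Ndnf is a secreted neurotrophic factor, Plekhh1 a protein with PH, MyTH4 and FERM domains, Cpe the carboxypeptidase that trims peptide hormone precursors, and Arhgap9 a GTPase-activating protein known from blood cells.

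RefSeq promoter windows (GRCm38.p6, 250 bases before to 50 after an annotated start) were available here for 6 of the 9 genes, 9 windows in all, of which 4 are alternative starts of Wdr17. The core letters of the TCF/LEF motif were searched on both strands as CTTTGA and CTTTGT, which cannot overlap each other on one strand. CTTTGA was in 0 of the 9 windows, against 16.0% of 32851 windows of all genes. CTTTGT was in 2 of the 9 windows, both of Wdr17, against 18.7% of all windows. The absence of these letters refers only to these windows. Of these windows, 3 are printed in lower case, with the motif in capitals. They belong to the gene with the highest fold change of the 9, which alone had a match, to the noncoding gene that followed Pgbd5 most closely, and to the only gene that was lower. The Wdr17 window lies at chr8:54726930-54727229 on the minus strand, the AA465934 window at chr11:83291449-83291748 on the plus strand and the Plekhh1 window at chr12:79028913-79029212 on the plus strand.
Wdr17: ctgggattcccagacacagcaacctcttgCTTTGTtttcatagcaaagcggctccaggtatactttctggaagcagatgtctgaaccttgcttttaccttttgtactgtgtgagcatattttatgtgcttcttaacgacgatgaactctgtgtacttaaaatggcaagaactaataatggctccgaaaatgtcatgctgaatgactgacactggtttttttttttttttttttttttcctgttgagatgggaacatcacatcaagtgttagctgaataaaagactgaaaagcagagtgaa
AA465934: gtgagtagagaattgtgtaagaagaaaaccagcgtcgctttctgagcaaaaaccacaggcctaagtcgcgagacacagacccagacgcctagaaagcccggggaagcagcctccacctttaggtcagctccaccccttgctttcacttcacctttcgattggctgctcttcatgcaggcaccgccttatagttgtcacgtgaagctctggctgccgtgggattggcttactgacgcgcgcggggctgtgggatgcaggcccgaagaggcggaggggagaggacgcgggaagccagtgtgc
Plekhh1: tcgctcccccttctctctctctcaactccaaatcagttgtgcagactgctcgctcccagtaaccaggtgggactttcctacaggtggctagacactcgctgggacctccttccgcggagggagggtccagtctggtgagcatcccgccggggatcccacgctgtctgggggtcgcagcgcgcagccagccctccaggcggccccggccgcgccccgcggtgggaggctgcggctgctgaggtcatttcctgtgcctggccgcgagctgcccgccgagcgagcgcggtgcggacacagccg
The match in this Wdr17 window begins 221 bases before the annotated start. This window had 38.3% G and C and 4 CpG dinucleotides, while the other Wdr17 windows ran from 36.7% to 66.3% and from 2 to 19, so it stands for 1 of the annotated starts. The AA465934 window had 58.0% and 18, and the Plekhh1 window 69.0% and 27, beside medians of 52.7% and 7 over all windows.

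Values are normalized counts, that is, reads assigned to a gene divided by 1 factor per library. Assigned reads numbered 14965316 to 23236129 with stabilized beta-catenin, 7467551 to 7913057 at P6 and 15234366 to 21568022 in adult controls. Axin2, a feedback target of beta-catenin, had 489, 670.0 and 739.5 normalized counts with stabilized beta-catenin, 61.7, 57.8 and 60.9 at P6, and 50.8, 92.0 and 88.6 in adult controls, so the adult libraries followed their labels. Cardiomyocyte markers were abundant in all libraries, with a summed level over 12 genes of 2894407 to 2966513 normalized counts with stabilized beta-catenin, 1616337 to 1665358 at P6 and 2508520 to 3419856 in adult controls. Ctnnb1, the beta-catenin gene, had 7626 to 8391 normalized counts with stabilized beta-catenin, 8333 to 9053 at P6 and 7543 to 8369 in adult controls, and counts per gene do not show whether exon 3 is missing.

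With stabilized beta-catenin, 8 of the 9 genes were higher and Plekhh1 was lower than in adult controls, and in all 9 the groups did not overlap. This contrast chose the genes, so its values are given as a description without a test. Of 12971 genes, 9.84% lay higher without overlap and 9.19% lower, 19.0% in all. Log2 fold changes (log2FC) are on the scale of log2(normalized count + 1), which understates the change of genes with few counts, and SE is limma's standard error. Wdr17 and AA465934 passed the filter on low counts, described with the tests, only through the stabilized beta-catenin libraries, as did Sypl2 and Pgbd5, with 2 and 1 adult control libraries at 10 or more. Plekhh1 passed only through the adult control libraries.

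Wdr17 was close to silent outside the stabilized beta-catenin group. It had 66.2, 83.0 and 57.5 normalized counts with stabilized beta-catenin, 1.37, 0 and 0 at P6, and 0, 0 and 0.720 in adult controls. In whole reads these are 260, 1 and 1 over the 3 libraries of each group. The ratio of stabilized beta-catenin to adult control was 241 (95% counting interval 42.9 to 9571), and to P6 it was 141 (25.1 to 5603). These intervals cover counting error only. P6 and adult controls, at 1 read each, could not be distinguished at this depth.

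AA465934 and Pgbd5 had the most similar patterns of any pair of the 9 genes. AA465934 had 87.2, 99.3 and 72.9 normalized counts with stabilized beta-catenin, 16.4, 11.6 and 8.91 at P6, and 4.17, 4.04 and 3.60 in adult controls. Pgbd5 had 101, 192 and 140.4 normalized counts with stabilized beta-catenin, 32.9, 26.0 and 25.2 at P6, and 10.8, 8.09 and 7.20 in adult controls. In both genes every P6 library lay between both adult groups, an order whose share over all genes was not computed. The log2FC of stabilized beta-catenin over adult control was 4.14 (SE 0.26) for AA465934 and 3.88 (SE 0.29) for Pgbd5. The RMS difference of this pair, that is, the root mean square difference of log2(normalized count + 1) over the 9 libraries after centring each gene on its own mean, was 0.31. The next closest pair of the 9 genes, Ndnf and Arhgap9, was at 0.61.

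Among the genes that were several-fold higher, Zfp536 was the steadiest within the stabilized beta-catenin group (coefficient of variation 10.5%), though not in adult controls (20.5%). It had 647, 649 and 774 normalized counts with stabilized beta-catenin, 217, 215 and 214 at P6, and 108, 159 and 158 in adult controls. P6 again lay between both adult groups with no overlap. The log2FC of stabilized beta-catenin over adult control was 2.29 (SE 0.18), a ratio of means of 4.87.

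Sypl2 was much higher with stabilized beta-catenin, but unevenly. It had 255, 128 and 368 normalized counts with stabilized beta-catenin, 21.9, 7.23 and 7.43 at P6, and 11.7, 5.05 and 14.4 in adult controls. The highest stabilized beta-catenin library held 2.87 times the lowest, yet the lowest remained far above all other libraries. P6 and adult control libraries overlapped. The log2FC of stabilized beta-catenin over adult control was 4.44 (SE 0.46).

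Ndnf, Cpe and Arhgap9 were higher with stabilized beta-catenin than in adult controls, and lowest at P6. Ndnf had 608, 727 and 965 normalized counts with stabilized beta-catenin, 74.0, 67.9 and 71.3 at P6, and 120.0, 166 and 200.2 in adult controls. Cpe had 6294, 5595 and 5710.1 normalized counts with stabilized beta-catenin, 1401, 1649 and 1585 at P6, and 3272, 3107 and 3650.0 in adult controls. Arhgap9 had 289.7, 224 and 156 normalized counts with stabilized beta-catenin, 11.0, 23.1 and 28.2 at P6, and 75.0, 56.6 and 59.0 in adult controls. In each of these 3 genes the groups stood in the same order with no overlap between any pair of groups. Pair by pair, 19.0% of all genes tested did not overlap between the adult groups. The shares were 77.0% between stabilized beta-catenin and P6, and 70.3% between P6 and adult control. The share for all pairs at once was not computed. The log2FC of stabilized beta-catenin over adult control was 2.24 (SE 0.23) for Ndnf, 0.81 (SE 0.13) for Cpe and 1.76 (SE 0.24) for Arhgap9. Cpe thus had the smallest change of the 9, a ratio of means of 1.75, with a coefficient of variation of 6.39% with stabilized beta-catenin, 8.34% at P6 and 8.33% in adult controls.

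Plekhh1 ran the other way. It had 7.02, 21.4 and 6.52 normalized counts with stabilized beta-catenin, 879, 872 and 851 at P6, and 126, 68.7 and 112 in adult controls. It was high in pups, low in adult controls and close to absent with stabilized beta-catenin. The log2FC of stabilized beta-catenin over adult control was -3.18 (SE 0.45), the second lowest of 12971 genes. Its 3 stabilized beta-catenin libraries held 7 to 25 reads each, and the highest had 3.28 times the normalized count of the lowest.

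**Figure D1:**
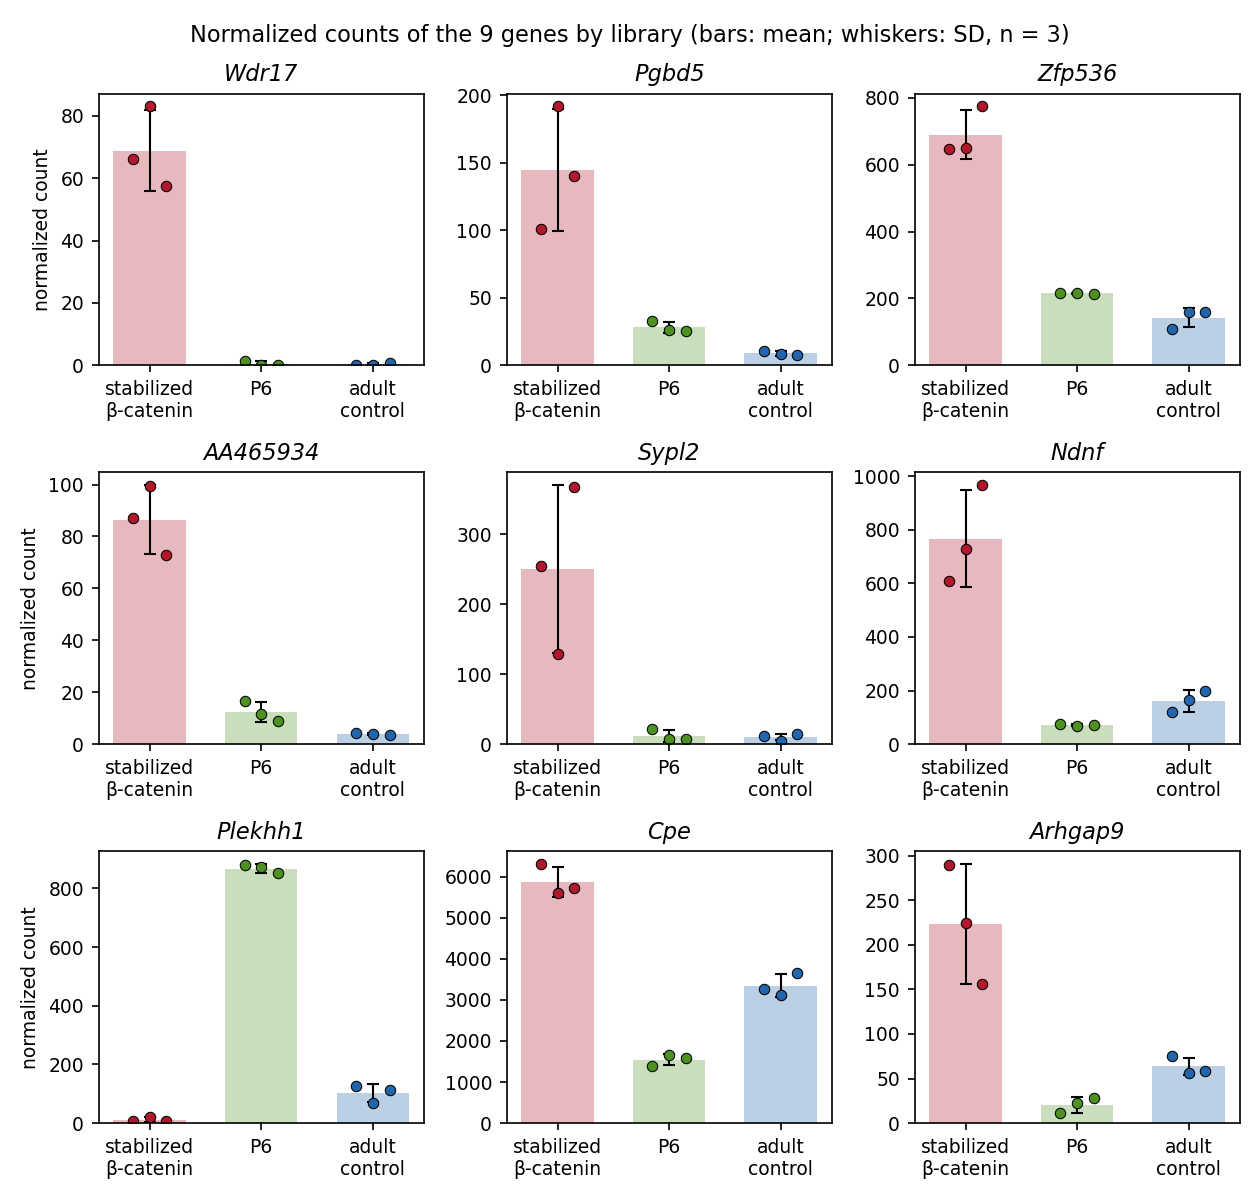
Normalized counts (vertical axis, starting at 0 in each panel) of the 9 genes in the stabilized beta-catenin, P6 and adult control groups; points are libraries, bars group means and whiskers SD (n = 3). The stabilized beta-catenin libraries are the highest in 8 panels and the lowest for Plekhh1, which is highest at P6.

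The size of the change in the contrast that chose the genes varied widely. Of 12971 genes ordered from the highest log2FC, Wdr17 was number 2, Sypl2 number 9, AA465934 number 12, Pgbd5 number 16, Zfp536 number 75, Ndnf number 78, Arhgap9 number 136 and Cpe number 437. Adult control and stabilized beta-catenin libraries also enter the comparisons with P6, so those comparisons are not independent of the choice of the genes.

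P6 was compared with adult control to ask where the young ventricle stands for each gene. Genes that reached 10 normalized counts in 3 or more of the 6 libraries were tested with limma, with p-values adjusted over all genes by Benjamini-Hochberg and a threshold of 0.05. Of the 9 genes, 7 passed this filter and Wdr17 and AA465934 did not. Pgbd5 passed only through P6, where it is high, so its test is not given. Zfp536 and Plekhh1 were higher at P6, Ndnf, Cpe and Arhgap9 were lower, and Sypl2 did not pass the test. Of 13398 genes that passed the filter, 31.2% were called higher and 31.3% lower, 62.5% in all, and these counts are not read as a feature of the 9 genes. The groups did not overlap in any of the 5 called genes, beside 35.6% of the 13398 genes above without overlap, 34.7% below and 70.3% in all.

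Plekhh1 stood at 867 ± 14.3 normalized counts at P6 and 102 ± 29.8 in adult controls (mean ± SD, n = 3 libraries each; log2FC 3.12, SE 0.21, limma adjusted p = 6.51e-06), the largest difference of the 7. Pgbd5 was at 28.1 ± 4.21 at P6 and 8.71 ± 1.89 in adult controls (log2FC 1.59, SE 0.30), without overlap. Zfp536 was at 215 ± 1.35 at P6 and 142 ± 29.0 in adult controls (log2FC 0.62, SE 0.18, limma adjusted p = 0.0138). AA465934, untested under the filter, averaged 12.3 ± 3.82 normalized counts at P6 and 3.94 ± 0.298 in adult controls, without overlap. Among the genes lower at P6, Ndnf was at 71.1 ± 3.05 at P6 and 162 ± 40.2 in adult controls (log2FC -1.15, SE 0.21, limma adjusted p = 0.00126). Cpe was at 1545 ± 129 at P6 and 3343 ± 278 in adult controls (log2FC -1.11, SE 0.12, limma adjusted p = 8.40e-05). Arhgap9 was at 20.8 ± 8.86 at P6 and 63.6 ± 9.98 in adult controls (log2FC -1.65, SE 0.34, limma adjusted p = 0.00275). Sypl2 was at 12.2 ± 8.43 at P6 and 10.4 ± 4.81 in adult controls (log2FC 0.14, 95% interval -1.06 to 1.35, limma adjusted p = 0.827), an interval that still holds changes of about 2-fold either way. With total-count scaling the median log2FC of all genes moved to 0.44, and the 5 calls kept their direction.

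Stabilized beta-catenin was then set against P6 to ask whether the adult hearts reached the level of young hearts or passed it. Pgbd5, Zfp536, Ndnf, Cpe and Arhgap9 reached 10 normalized counts in all 6 libraries, and these 5 were called higher. The stabilized beta-catenin libraries also served to choose the genes, so these calls and the p-values below are not independent of that choice. Wdr17, AA465934 and Sypl2 passed the filter only through the stabilized beta-catenin libraries and Plekhh1 only through P6, where each is high, so their tests are not given. Of 13367 genes, 36.5% were called higher and 35.8% lower, 72.3% in all. The groups did not overlap in any of these 5, beside 38.7% of the 13367 genes without overlap higher, 38.3% lower and 77.0% in all. For none of the 9 was the level with stabilized beta-catenin within the range of P6. Zfp536 was at 690.5 ± 72.8 normalized counts with stabilized beta-catenin and 215 ± 1.35 at P6 (log2FC 1.67, SE 0.10, limma adjusted p = 5.84e-07). Pgbd5 differed by a log2FC of 2.29 (SE 0.24, limma adjusted p = 1.50e-05) and AA465934 by 2.74 (SE 0.27). In these 3 genes every P6 library lay between both adult groups, an order whose share over all genes was not computed.

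For the genes that were lowest in pups, the log2FC over P6 exceeded that over adult control, which follows from their lower level at P6. Ndnf was at 767 ± 182 normalized counts with stabilized beta-catenin and 71.1 ± 3.05 at P6 (log2FC 3.39, SE 0.16, limma adjusted p = 1.39e-07). Arhgap9 had a log2FC of 3.42 (SE 0.34, limma adjusted p = 8.80e-06) and Cpe one of 1.93 (SE 0.09, limma adjusted p = 1.48e-07). Sypl2, with P6 and adult control overlapping, had a log2FC of 4.30 over P6 (SE 0.45). That of Wdr17 depends on the pseudocount because P6 held 1 read. Plekhh1 was at 11.6 ± 8.45 normalized counts with stabilized beta-catenin and 867 ± 14.3 at P6 (log2FC -6.30, SE 0.35), so that P6 held 74.5 times the mean count.

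**Figure D2:**
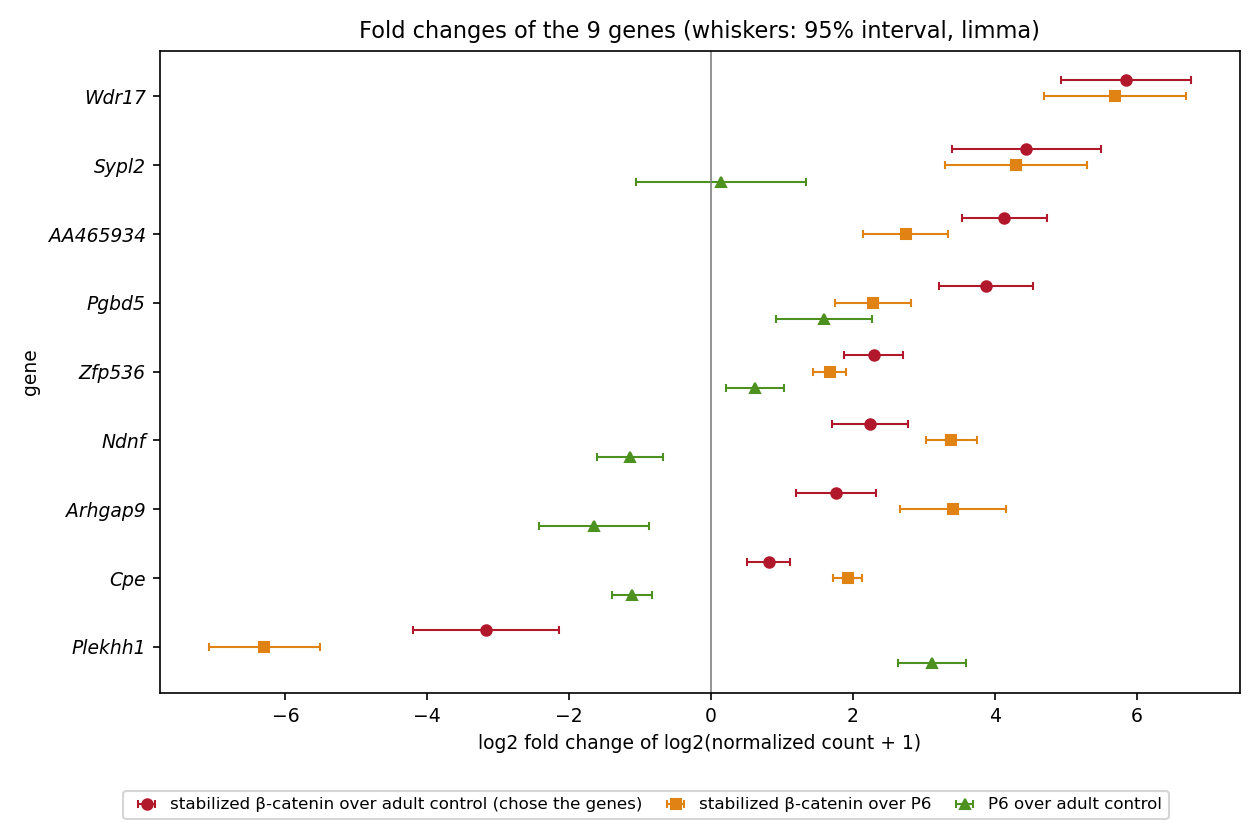
Log2 fold changes (horizontal axis) of the 9 genes (vertical axis) with limma's 95% intervals for stabilized beta-catenin over adult control, which chose the genes, stabilized beta-catenin over P6, and P6 over adult control. Intervals in the contrast that chose the genes describe the spread between libraries and are not tests. The same holds for genes that passed the filter only through the group where they are high. Wdr17 and AA465934 have no P6 over adult control value because they did not pass the filter; Plekhh1 is at -3.18, -6.30 and 3.12, opposite in each comparison to Ndnf, Arhgap9 and Cpe.

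The authors' deposited table includes a sheet of 678 genes whose rule of choice is not stated. In all 678 the mean was higher than in adult controls both with stabilized beta-catenin and at P6. That sheet lists Pgbd5, Zfp536 and AA465934 of the 9 genes, and not the other 6.

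None of the genes next to the 9 on the chromosome passed the limma test with stabilized beta-catenin. The 9 lie on chromosomes 3 (Sypl2), 6 (Ndnf), 7 (Zfp536), 8 (Wdr17, Cpe and Pgbd5), 10 (Arhgap9), 11 (AA465934) and 12 (Plekhh1). The 2 nearest genes on each side that are in the count table, and the overlapping ones in it, came to 41 genes by RefSeq order, of which 28 passed the filter. With stabilized beta-catenin against adult control, limma called 0 of these 28, beside 1.80% of all 12971 genes. At that share, 0 of 28 is not a result about the neighbours. In these 28 genes edgeR made 0 calls and DESeq2 made 2, and limma's p before adjustment was under 0.05 for 4. On data simulated for this comparison, changes were put only into genes averaging at least 50 normalized counts in adult controls. For these the test recovered 2.99% of 1.5-fold changes, 61.2% of 2-fold changes and 100% of 4-fold changes. Counts of 0 thus say little about changes under 2-fold. The recovery shares do not cover genes with fewer counts, among them several of the 28. The log2FC of the 28 ran from -1.04 to 1.11, with a median of 0.05. The highest log2FC was that of Ccne1, the cyclin E1 gene beyond Zfp536, at 23.1, 33.4 and 32.0 normalized counts with stabilized beta-catenin and 16.7, 10.1 and 13.0 in adult controls (log2FC 1.11, limma adjusted p = 0.141). Gpm6a, a neuronal membrane glycoprotein gene next to Wdr17, was at 84.2, 102 and 107 normalized counts with stabilized beta-catenin and 44.2, 61.7 and 49.0 in adult controls (log2FC 0.91, limma adjusted p = 0.0705; DESeq2 adjusted p = 0.0135). Sort1, a sorting receptor gene near Sypl2, was at 2397, 1630.1 and 2498 normalized counts with stabilized beta-catenin and 1340, 1238 and 1366 in adult controls (log2FC 0.70, limma adjusted p = 0.115; DESeq2 adjusted p = 0.00806). In these 3 neighbours the adult groups did not overlap. Nor did they in Cyb561d1 and Ddit3, higher with stabilized beta-catenin, or in Galnt2 and Tmem229b, lower. The overlapping genes Pigh, AI450353 and Gli1 were also lower without overlap. Of all 12971 genes, 19.0% did not overlap, and whether the neighbours differ from that share was not tested.

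Overlapping genes matter because the strand setting of the counting is not stated, so reads from both partners cannot be told apart. Atxn7l2, which overlaps Sypl2 on the same strand, was at 35.1, 22.2 and 41.5 normalized counts with stabilized beta-catenin and 27.5, 36.4 and 31.0 in adult controls (log2FC 0.02, limma adjusted p = 0.995). Gli1, an effector of Hedgehog signalling that overlaps Arhgap9 on the opposite strand, was at 5.01, 4.28 and 10.7 normalized counts with stabilized beta-catenin and 10.8, 22.2 and 10.8 in adult controls (log2FC -1.04, limma adjusted p = 0.403). Pigh, an enzyme subunit gene of GPI anchor synthesis on the strand opposite Plekhh1, was at 52.1, 65.9 and 64.6 normalized counts with stabilized beta-catenin and 136, 77.8 and 95.8 in adult controls (log2FC -0.72, limma adjusted p = 0.234). AI450353, a noncoding gene overlapping AA465934, had a log2FC of -0.99 (limma adjusted p = 0.455). Snord7, a small nucleolar RNA gene overlapping AA465934 on the same strand, had 0 normalized counts in all 9 libraries. Of these partners, Pigh alone pointed the same way as its overlapping gene by more than 0.1 on the log2 scale. Its adult groups did not overlap, nor did those of AI450353 and Gli1.

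No family relative of the 9 genes passed the limma test between the adult groups either. The list holds 17 genes related to Pgbd5, Zfp536, Sypl2, Plekhh1, Cpe or Arhgap9, and 14 passed the filter. With stabilized beta-catenin against adult control limma, edgeR and DESeq2 each called 0 of 14, beside 1.80% of all genes called by limma, and limma's p before adjustment was under 0.05 for 1. At that share, 0 of 14 is not a result about the relatives. Of the 14, 13 had an absolute log2FC under 1, and the exception was Syp, the synaptic vesicle protein related to Sypl2 (log2FC -1.13, limma adjusted p = 0.186). Plekhh2 was at 121, 121 and 155 normalized counts with stabilized beta-catenin and 75.0, 162 and 138 in adult controls (log2FC 0.14, limma adjusted p = 0.917), where Plekhh1 nearly vanished. The transposase-derived Pgbd1 had a log2FC of -0.07 (limma adjusted p = 0.960) and Zfp219 one of -0.01 (limma adjusted p = 0.993). Among the carboxypeptidases the log2FC ran from -0.30 for Cpm to 0.48 for Aebp1, whose protein resembles them and is secreted into the matrix.

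Several relatives did differ between P6 and adult control. At P6 against adult control, 6 of 15 relatives were higher and 4 lower, beside 62.5% of all genes called. The carboxypeptidase Cpz stood higher (log2FC 3.72), as did Plekhh2 (1.55) and Arhgap27 (1.24), a GTPase-activating protein related to Arhgap9. Cpxm2 stood lower (log2FC -4.61), at 6.85, 14.5 and 5.94 normalized counts at P6 and 170.0, 199 and 358 in adult controls. Cpz passed the filter only through P6 and Cpxm2 only through the adult controls, where each is high. Their tests are thus not given, and their calls in the counts above have the same limit. The pair Plekhh1 and Plekhh2 was thus higher at P6 in both genes, whereas Arhgap9 was lower at P6 and Arhgap27 was higher. Arhgap15 also stood lower at P6 (log2FC -0.86) and likewise passed only through the adult controls. Leaving out any adult control library, or P6 library 1 or 2, ended its call.

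**Figure D3:**
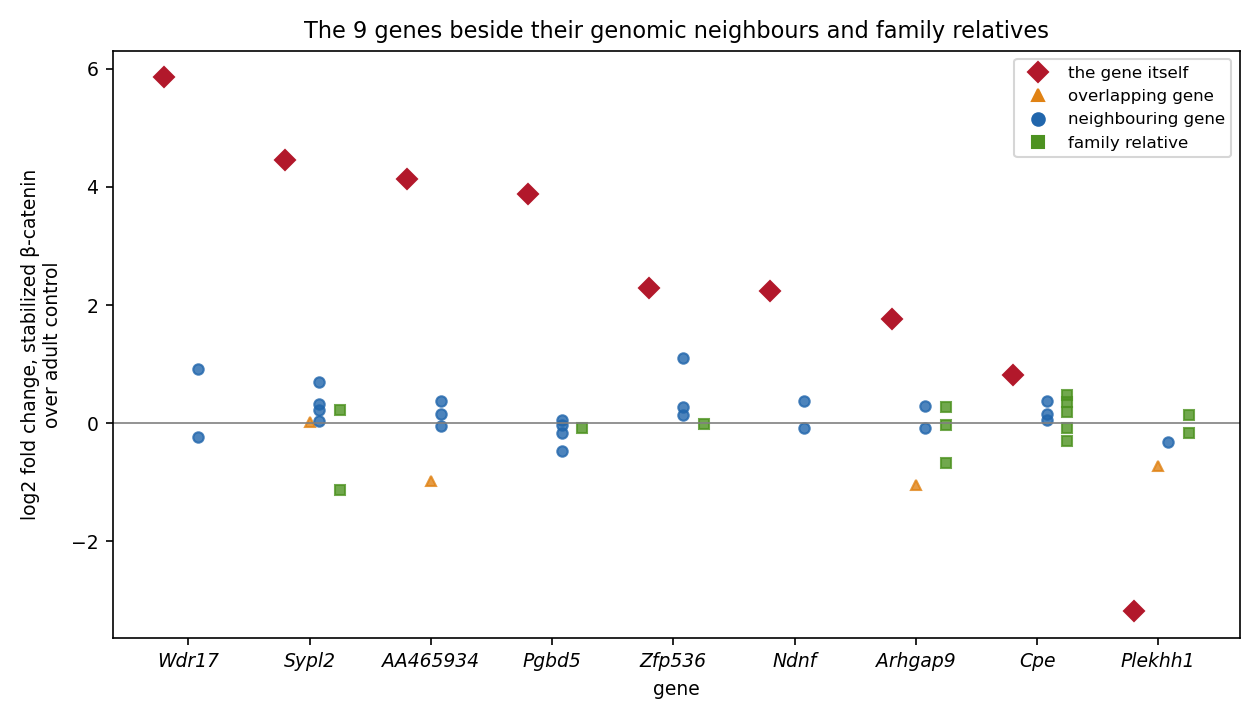
Log2 fold change of stabilized beta-catenin over adult control (vertical axis) for each of the 9 genes (red diamonds), genes overlapping it (orange triangles), its chromosomal neighbours (blue circles) and its family relatives (green squares) that passed the filter. The 9 genes span -3.18 to 5.85, and the other points lie between -1.13 and 1.11.

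A pair of pathways that hold one of the genes were examined through their other members. Of 17 peptide hormone processing genes, the setting of Cpe, 8 passed the filter with stabilized beta-catenin against adult control, 0 were higher and 1 was lower, beside 1.80% of all genes called. That gene was Corin, the protease that activates atrial natriuretic peptide, which fell to 1707, 1105 and 1798 normalized counts with stabilized beta-catenin, against 3785, 5848 and 6657 in adult controls (log2FC -1.81, limma adjusted p = 0.0139). It ran opposite to Cpe, and its call ended without stabilized beta-catenin library 2 (limma adjusted p = 0.0718) or 3 (0.0609) or adult control library 3 (0.0643). Of 20 genes of triads and junctional membranes, the setting known for Sypl2 in skeletal muscle, 17 passed the filter and limma and edgeR called 0 and DESeq2 1, with 2 under 0.05 in limma before adjustment (median log2FC -0.06). At P6 against adult control, 5 of 19 were higher and 10 lower, beside 31.2% and 31.3% of all genes. Among 20 Wnt feedback and target genes, 14 passed the filter and 8 were higher and 0 lower with stabilized beta-catenin (median log2FC 2.04, against -0.00066 over all 12971 genes). Of the 14, Sp5 and Tcf7 passed only through the stabilized beta-catenin libraries, where they are high. Their adult control maxima were 0.720 and 5.76 normalized counts. The count and the median are thus not independent of the filter. Axin2 had a log2FC of 3.05 in that comparison, below those of Wdr17, Sypl2, AA465934 and Pgbd5.

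Some of the 9 genes are known from nerve cells (Zfp536, Ndnf), skeletal muscle (Sypl2) or blood cells (Arhgap9), so markers of these and other cells were read beside them. The glial and neuronal list (12 genes) summed to 231 to 471 normalized counts with stabilized beta-catenin, 162 to 192 at P6 and 347 to 559 in adult controls, with Snap25 at 0 in both adult groups. The lymphocyte and blood cell list (11 genes) summed to 345 to 487 normalized counts with stabilized beta-catenin, 282 to 374 at P6 and 351 to 467 in adult controls. In the skeletal muscle list (12 genes), which summed to 29971 to 45891 normalized counts with stabilized beta-catenin, 14332 to 16797 at P6 and 33085 to 50136 in adult controls, most counts came from Ckm and Acta1, which are also heart genes. Acta1, the skeletal muscle alpha actin, had 5922 to 16293 normalized counts with stabilized beta-catenin, 566 to 898 at P6 and 1502 to 4523 in adult controls, and did not pass the test between the adult groups (log2FC 2.06, limma adjusted p = 0.0767). The skeletal muscle regulator Myod1 was at 0 with stabilized beta-catenin and at P6, and at 1 read in each adult control library, and the skeletal myosin Myh4 was at most 1.00 normalized counts with stabilized beta-catenin, 1.45 at P6 and 0.720 in adult controls. The 3 summed lists overlap between the adult groups. Of the other lists, fibroblast markers (10 genes) summed to 43024 to 50337 normalized counts with stabilized beta-catenin and 33507 to 42512 in adult controls, and endothelial markers (10 genes) to 14599 to 17449 with stabilized beta-catenin and 18709 to 22475 in adult controls. These 2 lists do not overlap between the adult groups, and their part in the values of the 9 genes was not tested. Most fibroblast counts came from Gsn and Dcn. Their means were 26267 and 9568 normalized counts with stabilized beta-catenin, and 20730 and 7032 in adult controls. Of the others, some had higher means with stabilized beta-catenin, such as Pdgfra, and some lower, such as Col1a1, Col3a1 and Dpt. Between the adult groups limma called 0 of the 10 fibroblast markers. Of 96 markers in 10 cell type lists, 70 passed the filter with stabilized beta-catenin against adult control and limma and edgeR called 0 and DESeq2 3, with 16 under 0.05 in limma before adjustment. The atrial and conduction list (6 genes, mostly Nppa) summed to 545, 12582 and 2590 normalized counts in stabilized beta-catenin libraries 1, 2 and 3, and to 1814 to 7560 in adult controls. Library 2 also held the lowest Sypl2 and Cpe and the highest Wdr17, AA465934, Pgbd5 and Plekhh1 of its group. In a group of 3 libraries any library is the highest or lowest for many genes, so these ranks do not set library 2 apart. The part of the difference in the atrial and conduction list in those values was not tested. Without library 2 the log2FC over adult control was 4.86 for Sypl2, -3.69 for Plekhh1 and 3.65 for Pgbd5. Wdr17 and AA465934 then missed the filter, as they did when either other stabilized beta-catenin library was left out. In whole ventricles a change in the number of cells of a type and a change in RNA per cell cannot be told apart.

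For each of the 9 genes the most similar other gene was found among 13546 genes by the same RMS difference over the 9 libraries, which are the libraries that chose the 9. The most similar gene was Sp5, a transcription factor known as a direct beta-catenin target, both for AA465934 (0.43) and for Pgbd5 (0.61). For Pgbd5 the gene Gabrg3 was nearly as close (0.62). Outside the stabilized beta-catenin group Sp5 is near 0, so its log2 pattern depends on the pseudocount. Sp5 had 26.1, 20.5 and 23.1 normalized counts with stabilized beta-catenin, 1.37, 1.45 and 1.49 at P6, and 0, 0 and 0.720 in adult controls. Zfp536 was closest to Ccnd2, the cyclin D2 gene, at 0.18. Ccnd2 had 13040, 13680 and 20311 normalized counts with stabilized beta-catenin, 4962, 4889 and 4353 at P6, and 1810, 3787 and 3805 in adult controls, so that both genes were lowest in adult control library 1.

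Wdr17 was closest to A1cf, which encodes an RNA-editing cofactor, at 0.56. A1cf had 87.2, 46.2 and 26.1 normalized counts with stabilized beta-catenin and 0 in the other 6 libraries. Sypl2 was closest to Fst, the activin antagonist follistatin (0.66), and Ndnf to Fgfrl1, a receptor-like protein that binds fibroblast growth factors (0.35). Plekhh1 was closest to Adamts14, a procollagen-processing protease, at 0.87. Adamts14 had 5.01, 2.57 and 2.37 normalized counts with stabilized beta-catenin, 179.5, 160.4 and 215 at P6, and 11.7, 10.1 and 12.2 in adult controls. Cpe was closest to Setd8, a histone H4 methyltransferase (0.14), and Arhgap9 to Snora21, a small nucleolar RNA (0.46). Pcp4l1 and Shisa3 were nearly as close to Arhgap9 (0.46 each). The median RMS difference over all genes searched ran from 0.85 for Cpe to 2.77 for Wdr17.

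**Figure D4:**
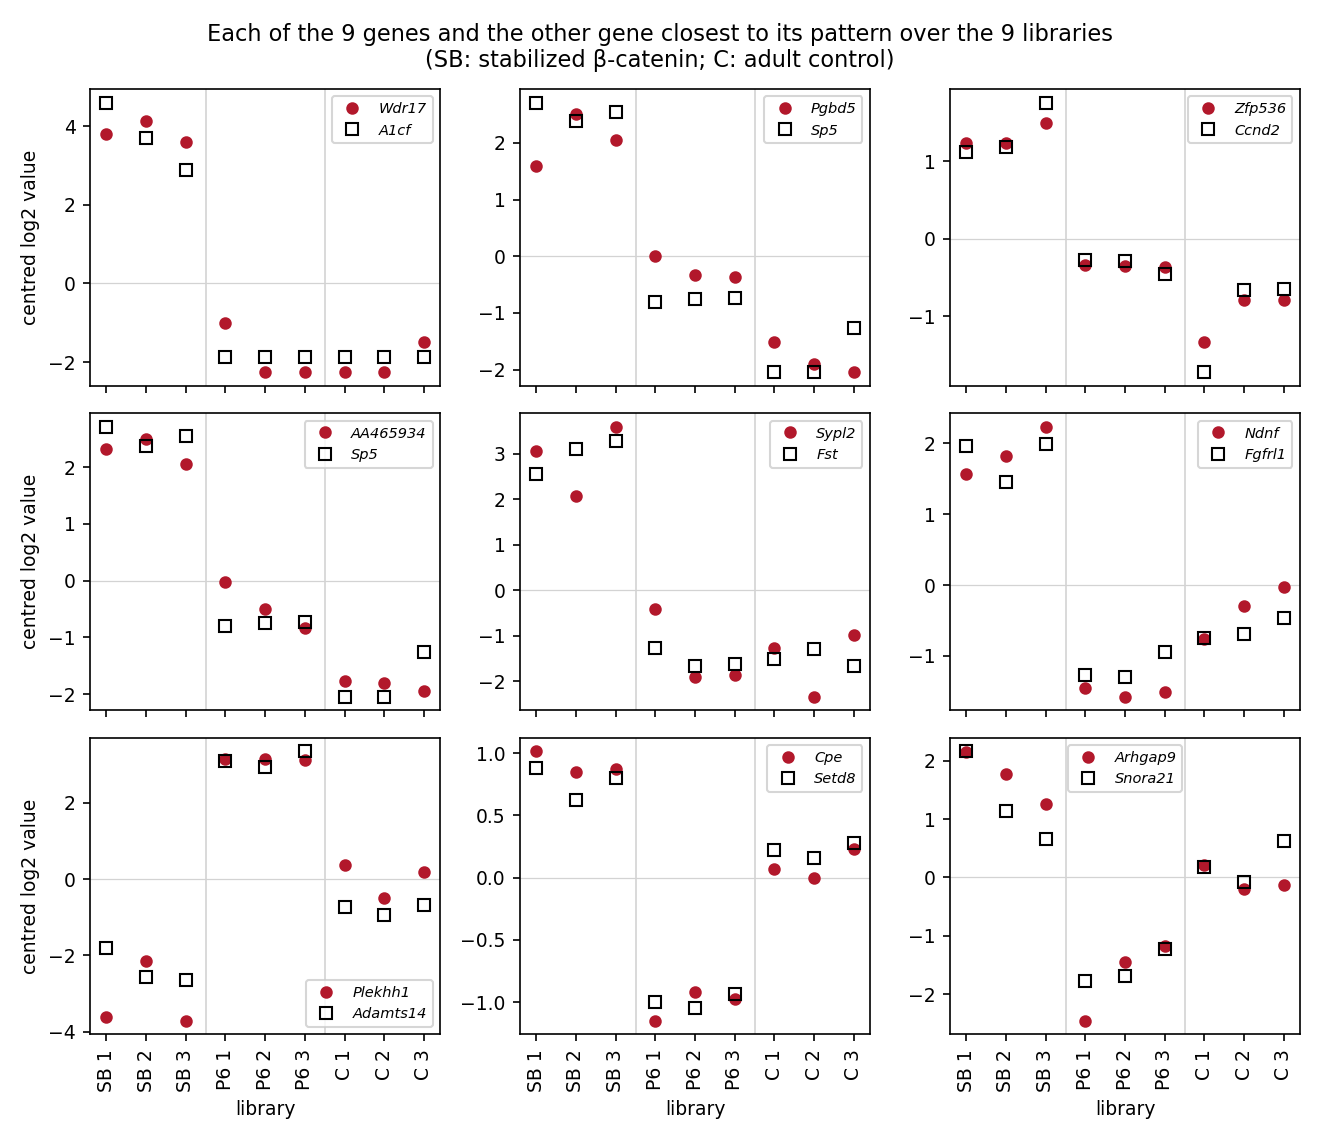
Centred log2(normalized count + 1) (vertical axis) of each of the 9 genes (red circles) and of the most similar other gene (open squares) in the 9 libraries (horizontal axis), with stabilized beta-catenin (SB) left, P6 in the middle and adult control (C) right. AA465934 and Pgbd5 share Sp5 as the most similar gene, and Cpe and Setd8 differ least, by an RMS difference of 0.14.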

How the data were processed

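The column names in the file headers name htseq-count, and per the submitters' processing notes Bowtie2 2.0, DESeq2 and build mm9 were used; annotation and strand setting are not given in the sources used here. The deposited table of 24391 genes holds a signal, the normalized count, equal to the count divided by 1 factor per library (100% of values whole within 0.001 after rescaling). Read numbers in the text, the counting intervals and the alternatives on reads use this rescaling; in stabilized beta-catenin library 1 and adult control library 2, 1 read is worth 1.00 and 1.01 normalized counts, so the step there is close to 1 and is less distinct. Deposited P6 counts equalled the recovered reads in all 24364 genes of matching name (27 names were turned into dates). Other deposited sheets hold copies, group means or a list of 678 genes.

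Each comparison used its own 2 groups in limma 3.58.1 (R 4.3.3) on log2(normalized count + 1), with an intensity trend, two-sided, on genes reaching 10 normalized counts in 3 or more libraries. An exact permutation test of 3 against 3 cannot fall below 0.1. Alternatives included edgeR 4.0.16 and DESeq2 1.42.0 on the recovered reads. The procedure was tested on simulated data; for stabilized beta-catenin against adult control, 6.84% of calls over 12904 genes were false. The 9 genes and all lists were chosen with earlier results of these data known; relatives, pathways and markers were listed by family or role. Named genes were the 9, relatives, neighbours and overlapping genes, the closest pattern for each, Axin2, and called list members with the largest change. Near ties and genes that bear on a limit were added, and some of the others are left out of the text.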

Additional observations from a re-analysis of the deposited data

How the results depend on the processing

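At P6 against adult control, 7 of the 9 genes passed the filter and limma called 3 higher, among them Pgbd5, whose test is not given above. Without the filter 4 were called higher. The call of each gene that passed the main filter, with its direction where called, held in every alternative that tested it. These were 107 values for P6 against adult control and 141 for stabilized beta-catenin against P6 (largest adjusted p among the called genes 0.0476, Zfp536 at P6). Some of these genes passed the filter only through the group where they are high, so for them this says nothing of stability; Wdr17 missed the filter against P6 without any 1 stabilized beta-catenin library. Fold changes of genes with few counts depended on the pseudocount: for stabilized beta-catenin over adult control, Wdr17 ran from a log2FC of 3.81 (pseudocount 5) to 7.83 (DESeq2). The number of genes called in that comparison was 233, with 154 under a filter of at least 50, 564 with DESeq2, 494 with all groups in 1 fit, and 27 (without stabilized beta-catenin library 3) to 397 (without adult control library 1) when 1 library was left out. edgeR on the recovered reads called 253 genes there, 9640 with stabilized beta-catenin against P6 and 8357 at P6 against adult control. Among the 28 neighbours, DESeq2 called 2 (Gpm6a and Sort1) and the fit of all groups 3 (also Ccne1). Total-count scaling moved the median log2FC of all genes to 0.44 (P6 over adult control) and -0.40 (stabilized beta-catenin over P6) and reversed a few neighbours and relatives: Cog2 to 0.080, Sort1 to 0.34 and Cpd to 0.42 in the first, and Cog2 to -0.084, Klhl2 to -0.14, Cpd to -0.21 and Cpm to -0.032 in the second; this follows from the shift of all genes. Replicate numbers are shared between groups, but same-numbered libraries did not deviate together (correlations of -0.12 to 0.20), and 1, 3 and 3 of 6 libraries correlated best with their own number. With the replicate number as a block, 7929, 9410 and 275 genes were called (P6 over adult control, stabilized beta-catenin over P6 and over adult control), and no call of the 9 genes changed. Depth limits Wdr17 outside the stabilized beta-catenin group and Plekhh1 within it.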
